A study of Mus musculus with 6 samples.

Results

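Nrf2, the transcription factor made by Nfe2l2, and 7 of the genes it is best known to switch on were examined in adrenal glands of a hypertensive and a hypotensive mouse strain. The group was chosen by gene name: every probe set whose single annotated symbol was Hmox1, Nqo1, Gclc, Gclm, Gsr, Txnrd1, Txn1 or Nfe2l2 was taken. These were 9 of the 12422 probe sets that are not controls, with 2 for Nqo1 and 1 for each of the other genes. The tissue was the whole adrenal gland of male mice aged 12 weeks from strain BPH, which is hypertensive, and from strain BPL, which is hypotensive, with 3 Affymetrix arrays per strain. The labels name no treatment and no engineered allele, and the sole labelled difference between the groups is the strain. They give 3 mice per strain without saying whether an array held RNA of 1 animal, so p-values measure the spread between these arrays, part of which may be technical. In RNA of a whole organ, fewer cells of a type and less RNA per cell cannot be told apart.

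In an unstressed cell the adaptor Keap1 holds Nrf2 for degradation. Oxidants and other reactive molecules release it, and Nrf2 then pairs with a small Maf protein and binds antioxidant response elements in front of its targets. The targets make glutathione, recycle thioredoxin, break down heme and reduce quinones. Steroid synthesis in adrenal mitochondria leaks electrons to oxygen, and catecholamines oxidise to quinones, so both adrenal compartments rely on such enzymes.

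The promoter windows of the group are shown first because Nfe2l2 and its targets are linked through a short DNA motif. RefSeq windows of mouse build GRCm38.p6, which run from 250 bases before to 50 bases after an annotated transcript start, were at hand for 5 of the 8 genes (Nfe2l2, Gclm, Txn1, Nqo1 and Txnrd1, the last with 3 starts), 7 windows in all. The core of the antioxidant response element, TGACNNNGC, was searched on both strands and was found in 3 of the 7 windows, 1 each of Nfe2l2, Gclm and Txnrd1. Of all 32851 windows, 12.4% held it. The stretches are printed 5′ to 3′ on the strand of the gene, with the match in capitals.
Nfe2l2, chr2:75704870-75704913, minus strand: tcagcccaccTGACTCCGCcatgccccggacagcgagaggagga
Gclm, chr3:122245398-122245456, plus strand: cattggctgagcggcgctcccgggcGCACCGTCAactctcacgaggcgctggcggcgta
Txnrd1, chr10:82859089-82859147, plus strand: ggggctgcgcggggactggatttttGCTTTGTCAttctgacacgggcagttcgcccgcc
The Nfe2l2 match lay 240 to 232 bases upstream of its start and read along the gene's own strand. The Gclm match, 134 to 126 bases upstream, and the Txnrd1 match, 92 to 84 bases upstream, read along the opposite strand. The AP-1 site TGANTCA and the heat shock element core GAANNTTC, which read the same on both strands, were found in none of the 7 windows, and 7.81% and 7.86% of all windows held them. Both the antioxidant and the AP-1 motif begin with TGA, so 1 stretch of DNA can hold both, which none of these windows did. A match describes these letters and is no evidence of binding. The windows reach only 250 bases before a start, so a window without a match does not show that the gene lacks the element.

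Signals were MAS5 intensities rescaled to a common array median, and tests used log2(signal + 203), on which differences of dim genes come out too small. A filter on the mean log2 value removed the dimmest 40% and left 7453 probe sets to test, among them 7 of the 9 of the group. In BPH adrenals 6 of these 7 had higher mean log2 values than in BPL adrenals, where 60.5% of all tested probe sets had them, and none passed the limma test across all tested probe sets after Benjamini-Hochberg adjustment, against 4.11% of all tested probe sets (3.18% higher and 0.926% lower in BPH). At an unadjusted p under 0.05, 3 of the 7 were higher and 0 lower, against 20.6% of all tested probe sets in either direction and 14.2% higher. In 4 of the 7 (Nfe2l2, Txn1, Txnrd1 and Gclc) every BPH array lay above every BPL array, and in 0 below, against 19.7% above, 7.97% below and 27.6% either way among all tested probe sets. The median log2 difference, BPH minus BPL, was 0.42 over the 7 and 0.08 over all tested probe sets. With the authors' own array scaling the latter median was -0.02, and 6 of the 7 members were again positive. Among all called probe sets, 77.5% were higher in BPH, a share of 66.3% with the authors' scaling, 67.3% after quantile normalization and 69.1% after centring.

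**Figure D1:**
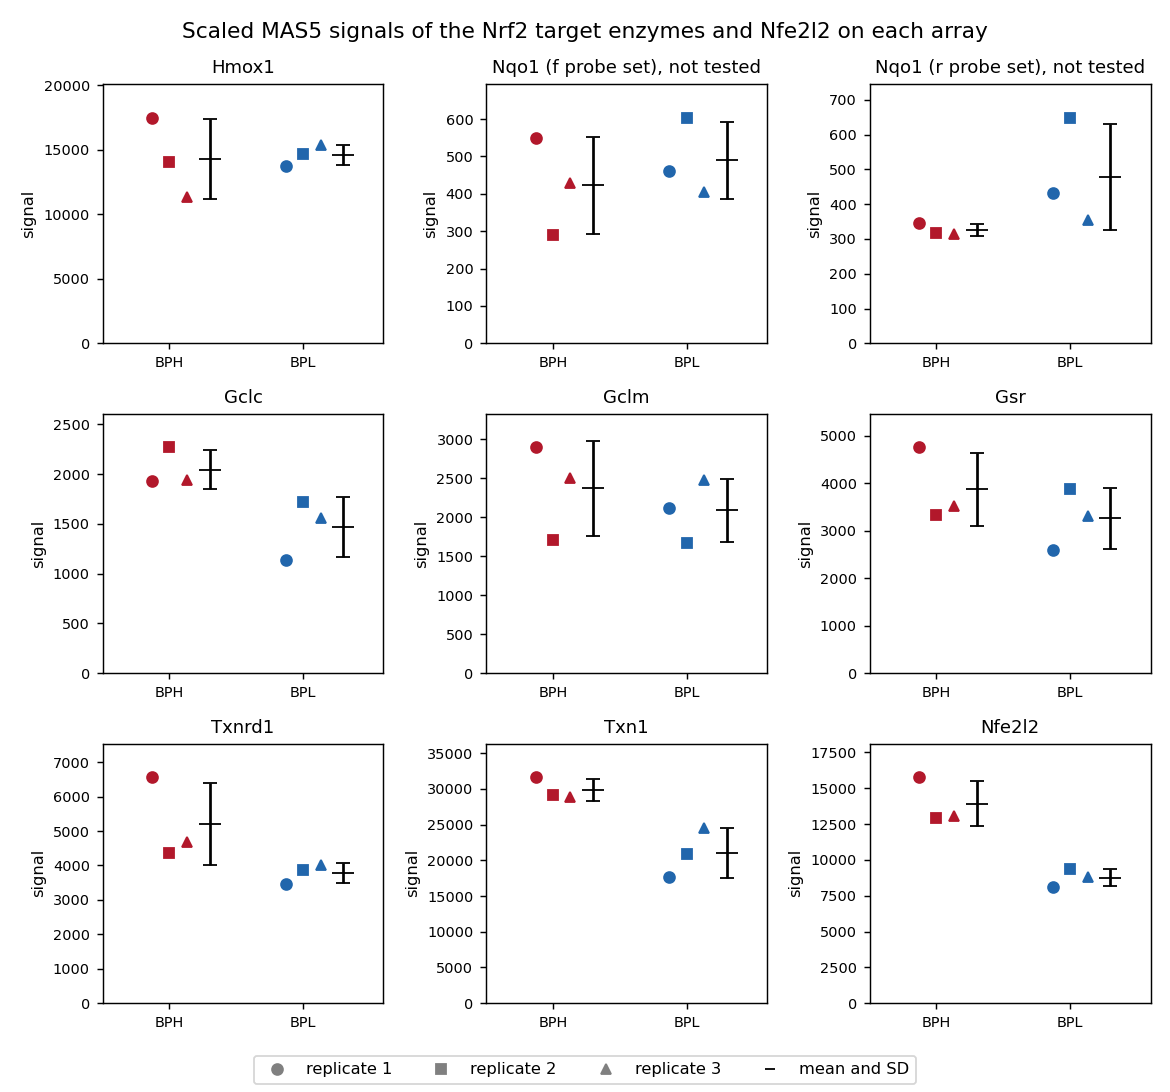
Scaled signal (linear axis from 0) of the 9 probe sets on each array, with BPH in red and BPL in blue, marker shape for the replicate number, and black bars for the mean and SD of 3 arrays. The groups are apart for Gclc, Txnrd1, Txn1 and Nfe2l2, and for the dim Nqo1 r probe set, and overlap for the rest.

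Nfe2l2, the sensor-regulated factor itself, had signals of 15763, 12930 and 13101 on BPH arrays, against 8122, 9358 and 8820 on BPL arrays. The lowest BPH array was above the highest BPL array by 3571 signal units, a gap wider than the range within either strain. The means were 13931 ± 1589 in BPH and 8767 ± 620 in BPL (SD, n = 3 each). The log2 difference was 0.65 ± 0.16 (SE), a 1.57-fold higher value with a 95% interval of 1.23 to 2.01, and it missed the threshold (limma adjusted p = 0.058, unadjusted p = 0.0027). Its p ranked 348 among the 7453, of which the first 306 were called. The difference passed in 3 of 16 alternative settings: with a higher pseudocount (limma adjusted p = 0.033), with a stricter filter on dim probe sets (0.024) and with a trended and robust variance (0.024). Over the 16 settings it ran from 0.50 to 0.70, with limma adjusted p from 0.024 to 0.38. Without BPL replicates 1 and 2, which carried the strongest skeletal muscle signals, the difference was 0.64 ± 0.23. BPL replicate 3, the BPL array then left, also carried them. Its mean log2 value over the muscle markers was 10.75, against 8.97 to 9.07 on BPH arrays.

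The thioredoxin arm consists here of Txn1, the cytosolic thioredoxin that reduces protein disulfides, and Txnrd1, the selenoenzyme that returns it to the reduced form with NADPH. Txn1 had signals of 31622, 29114 and 28916 on BPH arrays, against 17608, 20931 and 24588 on BPL arrays. The BPH arrays were close together and all above the BPL arrays, which were more spread (coefficients of variation of 5.05% in BPH and 16.6% in BPL). The log2 difference was 0.51 ± 0.17, a 1.43-fold higher value with a 95% interval of 1.09 to 1.87, and did not pass (limma adjusted p = 0.14, unadjusted p = 0.015). It was 0.28 ± 0.22 without BPL replicates 1 and 2.

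Txnrd1 had signals of 6559, 4370 and 4690 on BPH arrays, against 3464, 3858 and 4013 on BPL arrays. Here the BPH arrays were the more spread (22.7%, against 7.49% in BPL), since replicate 1 stood well above the other two, although all lay above BPL. The log2 difference was 0.42 ± 0.19 (1.34-fold, 95% interval 0.998 to 1.8, limma adjusted p = 0.25), and 0.25 ± 0.17 without BPH replicate 1.

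Glutathione synthesis begins with glutamate-cysteine ligase, whose catalytic subunit is Gclc and whose modifier subunit is Gclm. Gclc had signals of 1929, 2269 and 1943 on BPH arrays, against 1136, 1716 and 1558 on BPL arrays. The strains did not overlap, but the gap of 213 signal units between the nearest arrays was smaller than the range within either strain. The log2 difference was 0.44 ± 0.18 (1.36-fold, 95% interval 1.02 to 1.81, limma adjusted p = 0.22), and it was 0.29 ± 0.16 without BPL replicate 1.

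Gclm had signals of 2893, 1702 and 2506 on BPH arrays, against 2117, 1666 and 2477 on BPL arrays. The strains overlapped almost fully, each with a low replicate 2. The log2 difference of 0.15 ± 0.22 did not pass (1.11-fold, 95% interval 0.78 to 1.58, limma adjusted p = 0.73), and it was 0.004 without BPH replicate 1, 0.01 without BPL replicate 2 and -0.09 without BPL replicates 1 and 2 together. Whether the 2 subunits differed from each other in their response was not tested.

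Gsr, glutathione reductase, regenerates glutathione from its disulfide. Its signals were 4755, 3341 and 3528 on BPH arrays, against 2603, 3881 and 3313 on BPL arrays. BPL replicate 2 lay above 2 of the 3 BPH arrays. The log2 difference of 0.23 ± 0.20 did not pass (1.18-fold, 95% interval 0.853 to 1.62, limma adjusted p = 0.54), and was 0.08 without BPH replicate 1 and 0.09 without BPL replicate 1.

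Hmox1, heme oxygenase 1, splits heme into biliverdin, iron and carbon monoxide and is among the most inducible Nrf2 targets in many cell types. It had signals of 17491, 14008 and 11347 on BPH arrays, against 13773, 14702 and 15332 on BPL arrays. The BPH arrays included both the highest and the lowest of all 6 values, and the BPL arrays lay between them. The means were 14282 ± 3081 in BPH and 14602 ± 784 in BPL (SD, n = 3 each). The log2 difference was -0.05 ± 0.19 (0.965-fold, 95% interval 0.719 to 1.295, limma adjusted p = 0.90). A rise above 1.295-fold lies outside the interval of this fit. Leaving out 1 array could turn the sign: the difference was 0.10 without BPH replicate 3 and -0.21 without BPH replicate 1.

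Nqo1, the quinone reductase often used as an Nrf2 readout, was too dim to be tested. Its first probe set, marked f by the manufacturer for a sequence family, had signals of 550, 290 and 428 on BPH arrays, against 461, 604 and 405 on BPL arrays. Its second, marked r for relaxed selection rules, had 345, 316 and 315 on BPH arrays, against 433, 649 and 356 on BPL arrays. The strains overlapped on the first, and on the second all BPH arrays were below the BPL arrays. With no filter, the log2 differences were -0.16 ± 0.21 and -0.35 ± 0.20, and neither passed (limma adjusted p = 0.78 and 0.47). Signals at this level stand close to the added 203 units, and the number of arrays limits the precision further.

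**Figure D2:**
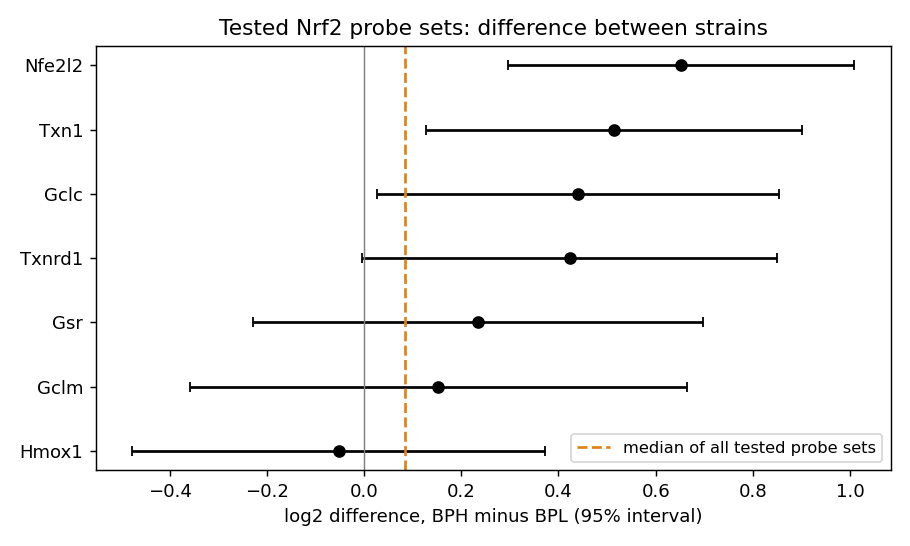
Log2 difference, BPH minus BPL, of the 7 tested probe sets with 95% intervals from the limma fit, and the median of all tested probe sets at 0.08 as a dashed line. Intervals of Nfe2l2, Txn1 and Gclc lie above 0 before adjustment for multiple tests, while those of Txnrd1, Gsr, Gclm and Hmox1 include 0.

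Single arrays stood out across several genes of the group, though how often they did so over all tested probe sets is not given here. BPH replicate 1 had the highest of the 6 signals for 6 of the 7 tested genes, and BPL replicate 1 the lowest for 5 of the 7. BPH replicate 1 also had the largest scaling factor (1.1) and BPL replicate 1 the smallest (0.909). In the signals as deposited, before rescaling, the counts were 5 of 7 and 5 of 7, and Nfe2l2, Txn1, Txnrd1 and Gclc again had all BPH arrays above all BPL arrays. Scaling changed the sizes more than the order: with the authors' scaling, the log2 differences were 0.54 for Nfe2l2, 0.40 for Txn1, 0.34 for Gclc and 0.31 for Txnrd1.

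The proteins that control Nrf2 or bind DNA with it were measured for 13 of 17 listed genes and tested for 9. None passed the limma test and 3 of the 9 had an unadjusted p under 0.05, all higher in BPH, against 14.2% of all tested probe sets. On the brightest probe set of each gene, all 9 differences were positive, with a median of 0.33. Every BPH array lay above every BPL array in 5 of the 9. Among all tested probe sets, 60.5% were positive and 19.7% had BPH above in this way. A second tested Nfe2l1 probe set differed by -0.39 ± 0.22 (limma adjusted p = 0.35), against 0.10 ± 0.17 on the brightest. Mafk, a small Maf partner, had signals of 3352, 3500 and 2712 on BPH arrays, against 891, 2106 and 2078 on BPL arrays. BPL replicate 1 was the low one, and the log2 difference was 0.91 ± 0.29 (limma adjusted p = 0.13). Mafg, another partner, differed by 0.56 ± 0.18 (limma adjusted p = 0.14) and by 0.34 on its second probe set. The coactivator Crebbp differed by 0.55 ± 0.14 (limma adjusted p = 0.078), and Bach1, a repressor that competes for the same elements, by 0.43 ± 0.21 (limma adjusted p = 0.29). Sqstm1, the brightest of the list, an autophagy receptor that binds Keap1, differed by 0.02 ± 0.18 (limma adjusted p = 0.95). Keap1 was below the filter, at 126, 244 and 430 on BPH arrays, against 577, 297 and 425 on BPL arrays. Maff, a further small Maf partner, was below it too, at 92.5, 714 and 316 on BPH arrays, against 792, 763 and 609 on BPL arrays. So were Nfe2 and Nfe2l3. All of these untested genes had a lower mean signal in BPH, and the strains overlapped on each. How often probe sets below the filter had lower BPH means in general is not given here. With no filter, the median log2 difference over all 12422 probe sets was 0.01, against 0.08 over the tested ones.

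Of 10 tested thioredoxin partners, 1 was higher, 0 were lower, and the median log2 difference was 0.24. The one called was Srxn1, sulfiredoxin, which repairs over-oxidised peroxiredoxins and is a known Nrf2 and AP-1 target. Its brightest probe set had signals of 24096, 24281 and 20234 on BPH arrays, against 1921, 2687 and 2460 on BPL arrays. Every BPH array was above every BPL array by a wide gap, and the log2 difference was 3.18 ± 0.17 (limma adjusted p = 7.9e-05). The other Srxn1 probe set differed by -0.03 ± 0.15 (limma adjusted p = 0.93), so the 2 probe sets disagree. Prdx2, the brightest peroxiredoxin tested, differed by 0.35 ± 0.18, mitochondrial Prdx3 by 0.39 ± 0.17 and mitochondrial Txn2 by 0.44 ± 0.15. None of these 3 passed (limma adjusted p from 0.17 to 0.30).

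Of 7 tested genes of glutathione supply and use, 1 was higher and 0 were lower, with a median of 0.04. Slc3a2, the heavy chain that carries the cystine transporter and other amino acid transporters, had signals of 38142, 31959 and 29617 on BPH arrays, against 10613, 13339 and 16529 on BPL arrays. The strains were far apart, with a log2 difference of 1.30 ± 0.20 (limma adjusted p = 0.010). Its cystine-carrying light chain Slc7a11 was below the filter in both strains, at 223, 69.7 and 591 on BPH arrays, against 374, 223 and 328 on BPL arrays. Gss, which completes glutathione, had probe sets that opposed each other: the brightest differed by 0.67 ± 0.24 (limma adjusted p = 0.17) and the other by -1.49 ± 0.22 (limma adjusted p = 0.0092). No direction is given for Gss.

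NADPH feeds both Gsr and Txnrd1. Of 5 tested genes of its supply, 0 were higher and 1 was lower, with a median of -0.15. Tkt, the transketolase of the pentose phosphate pathway, had signals of 40556, 39279 and 31583 on BPH arrays, against 72718, 69405 and 56801 on BPL arrays, a fall by 0.83 ± 0.17 (limma adjusted p = 0.036). Me1, malic enzyme and the brightest of the list, differed by 0.21 ± 0.16 (limma adjusted p = 0.50). Of 11 tested genes of heme and iron handling, which act before and after Hmox1, limma called none in either direction, 1 had an unadjusted p under 0.05, and the median was -0.07. Fth1, the ferritin heavy chain that stores iron freed from heme and the brightest of the list, differed by 0.01 ± 0.17, and Blvra, which reduces the biliverdin made by Hmox1, by -0.48 ± 0.24 (limma adjusted p = 0.99 and 0.29).

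Of 22 tested genes in a list of other known Nrf2 targets, 4 were higher, 1 was lower and 17 did not pass, with a median of 0.20. The higher ones were the retinal dehydrogenase Aldh1a1 (1.46 ± 0.19), Ugdh, which makes the sugar donor for glucuronidation (1.16 ± 0.19), the aldo-keto reductase Akr1c13 (0.82 ± 0.17) and the epoxide hydrolase Ephx1 (0.74 ± 0.16), with limma adjusted p from 0.0042 to 0.043. A second Aldh1a1 probe set differed by 0.39 ± 0.18 and was not called (limma adjusted p = 0.25), and Akr1c13 belongs to a family of near-identical copies that its probes may share. Mgst1, a microsomal glutathione transferase, had signals of 8429, 5801 and 8479 on BPH arrays, against 31600, 25767 and 27444 on BPL arrays, and fell by 1.89 ± 0.19 (limma adjusted p = 0.0013). Gstm1, the brightest of the list, differed by -0.01 ± 0.16 (limma adjusted p = 0.99) on a probe set marked f for a sequence family. On its second probe set every BPH array lay below every BPL array, and the difference was -0.35 ± 0.16 (limma adjusted p = 0.25).

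Over these 6 lists, 6 of 64 genes tested on their brightest probe set were called higher and 2 lower, beside 3.18% and 0.926% of all tested probe sets. On their other probe sets Srxn1 and Aldh1a1 were not called and Gss was called lower. Srxn1 and Mgst1 were called in all 16 alternative settings and the other 6 in fewer. Aldh1a1 lost its call without BPL replicates 1 and 2 together (limma adjusted p = 0.083). Slc3a2 lost it there, without BPH replicate 1 and without BPH replicate 2, and Ugdh in these 3, without BPL replicate 2 and with no filter. Akr1c13, Tkt and Ephx1 were called in 7, 7 and 4 of the 16, with limma adjusted p up to 0.25, 0.44 and 0.46. Akr1c13 lost its call without any single array, and Tkt and Ephx1 without any but BPL replicate 3.

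**Figure D3:**
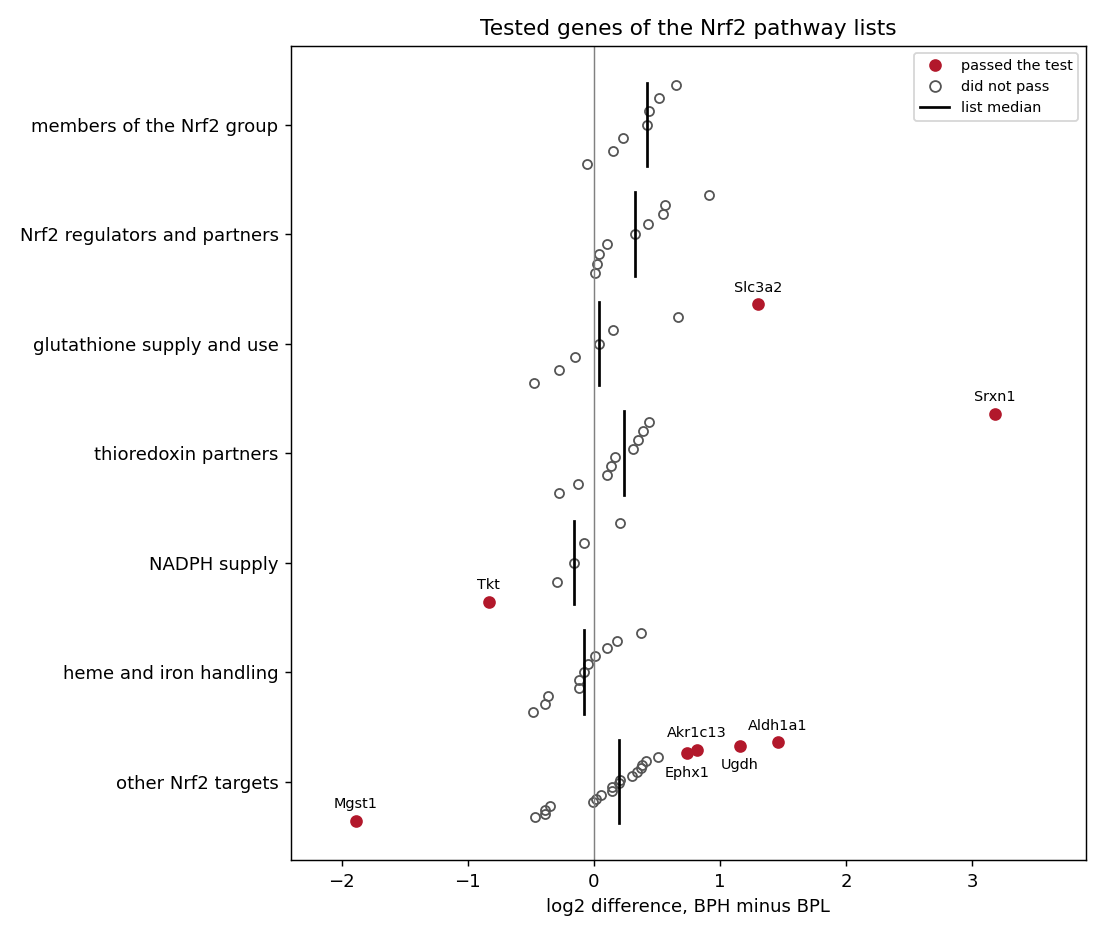
Log2 difference, BPH minus BPL, of every tested gene in the Nrf2 group and in the 6 pathway lists, 1 probe set per gene, with filled red points for genes that passed the limma test and black bars for list medians. The 8 called genes lie outside the Nrf2 group itself, whose 7 tested genes lie between -0.05 and 0.65.

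The likeness of other genes to Nfe2l2, which had the largest absolute difference among the tested members, was taken as Pearson's r of log2 values over the 6 arrays, both strains pooled. The 5 most alike were Vps4a, Kitl, Hspe1, Hdgf and Pcna, with r from 0.988 to 0.995, and 412 of 6712 candidate probe sets had r above 0.9, so these 5 are not set apart. Nfe2l2 itself separated the strains, so this choice favours genes that do too, and their differences are given as a description with no test. The log2 difference was 0.82 for the growth factor Kitl, 0.82 for the mitochondrial co-chaperonin Hspe1 and 0.90 for the replication clamp Pcna, against 0.23 for Vps4a and 0.31 for Hdgf.

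Stress-response lists had larger median differences than the 0.42 of the Nrf2 group. Of 10 tested heat shock factor targets 8 were higher and 0 lower (median 2.04), led by Hspa1a (4.89 ± 0.30), Hspa1b (4.67 ± 0.33), Dnajb1 (3.17 ± 0.44), Bag3 (2.47 ± 0.32), Hsph1 (2.44 ± 0.27) and Hsp90aa1 (1.65 ± 0.23), while the brightest, Hspd1, was at 0.14 ± 0.22. Hspa1a and Hspa1b are near-identical copies, and their probes may share transcripts. Of 12 immediate early genes 11 were higher and 0 lower (median 2.13), led by Fos, Junb, Egr1, Nr4a2, Ier3 and Ier2 at 2.20 to 3.47. The brightest, Nr4a1, was at 1.55 ± 0.17. The part of these lists in the Nrf2 group's differences was not tested.

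Skeletal muscle markers were on BPL arrays: 7 of 10 tested were lower in BPH, 0 were higher, and summed signals of the 12 measured ran from 8213 to 8778 in BPH and from 32264 to 396010 in BPL. Markers such as Myh4 and Myh1, with BPH means of 28.9 and 113, passed the filter through their BPL arrays. For these, the filter favoured a lower value in BPH. Second tested probe sets of Atp2a1, Myh4 and Ckm differed by -4.48, -0.42 and 0.03, and the last 2 overlapped between strains. Macrophage markers, of interest because macrophages hold much Hmox1, had 0 of 7 called by limma. At an unadjusted p under 0.05 there were 3 of 7, all higher in BPH. In 4 of the 7 every BPH array lay above every BPL array, and in 0 below, against 19.7% and 7.97% of all tested probe sets. The strains overlapped on C1qa, C1qb and C1qc, which differed by 0.10, -0.07 and -0.18. They also overlapped on second tested probe sets of C1qb and Csf1r, which differed by -0.38 ± 0.24 and 0.21 ± 0.21. Mean log2 values of the 10 measured did not overlap (10.28 to 10.43 in BPH, 10.12 to 10.24 in BPL). Their summed signals did (15159 to 19186 in BPH and 14174 to 16709 in BPL). The markers Adgre1, Marco and Spic were below the filter. Of 6 fat markers 0 were called by limma and 3 had an unadjusted p under 0.05, 1 higher and 2 lower (sums 138560 to 196190 in BPH and 180510 to 191910 in BPL). Several were bright: Adipoq had mean signals of 62722 in BPH and 58866 in BPL, and Ucp1 of 33577 and 59039. On both Ucp1 probe sets all BPH arrays were below all BPL arrays. The differences were -0.84 ± 0.24 and -0.68 ± 0.24 (limma adjusted p = 0.097 and 0.17). Retn went the other way, at 0.99 ± 0.25 (limma adjusted p = 0.069). Of 3 red cell markers 0 were called by limma and 0 had an unadjusted p under 0.05. Adrenal markers were bright, with mean log2 values of 16.0 to 16.2 in BPH and 15.7 to 16.1 in BPL over 7 cortex genes and of 14.8 to 15.2 in BPH and 14.0 to 14.6 in BPL over 6 medulla genes. On the brightest probe sets of the 7 cortex genes limma called 0. Only Nr5a1, higher in BPH by 0.44 ± 0.16, had an unadjusted p under 0.05, and the median difference was 0.17. Other tested Nr5a1 probe sets differed by 0.96 ± 0.26 (limma adjusted p = 0.089) and 1.24 ± 0.23 (0.023), the last of which was called. Second probe sets of Star and Hsd3b1 differed by 0.02 and 0.31 and were not called. Of the 6 medulla genes 2 were higher in BPH and 0 lower, 4 had an unadjusted p under 0.05, all higher, and the median was 0.69, above the 0.42 of the Nrf2 group. The called ones were Th, tyrosine hydroxylase, which starts catecholamine synthesis (1.28 ± 0.24, limma adjusted p = 0.023), and Scg2, a granin of secretory granules (0.84 ± 0.19, limma adjusted p = 0.048). These counts and the median used the brightest probe sets. Chga differed by 0.53 ± 0.23 on its brightest probe set and by 0.08 ± 0.15 on its second. Pnmt differed by 0.90 ± 0.25 and 1.19 ± 0.36, and none of these 4 was called. The 3′ over 5′ signal of the Gapdh control, as a log2 ratio, ran from 0.08 to 0.21 on BPH arrays and from -0.03 to 0.06 on BPL arrays. That of the Actb control ran from 0.94 to 1.25 on BPH arrays and from 0.79 to 0.90 on BPL arrays, so neither control overlapped between the strains. The part of these measures in the differences of the Nrf2 group was not tested. The fit without BPL replicates 1 and 2 does not test it, since BPL replicate 3 also held more muscle signal than any BPH array.

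**Figure D4:**
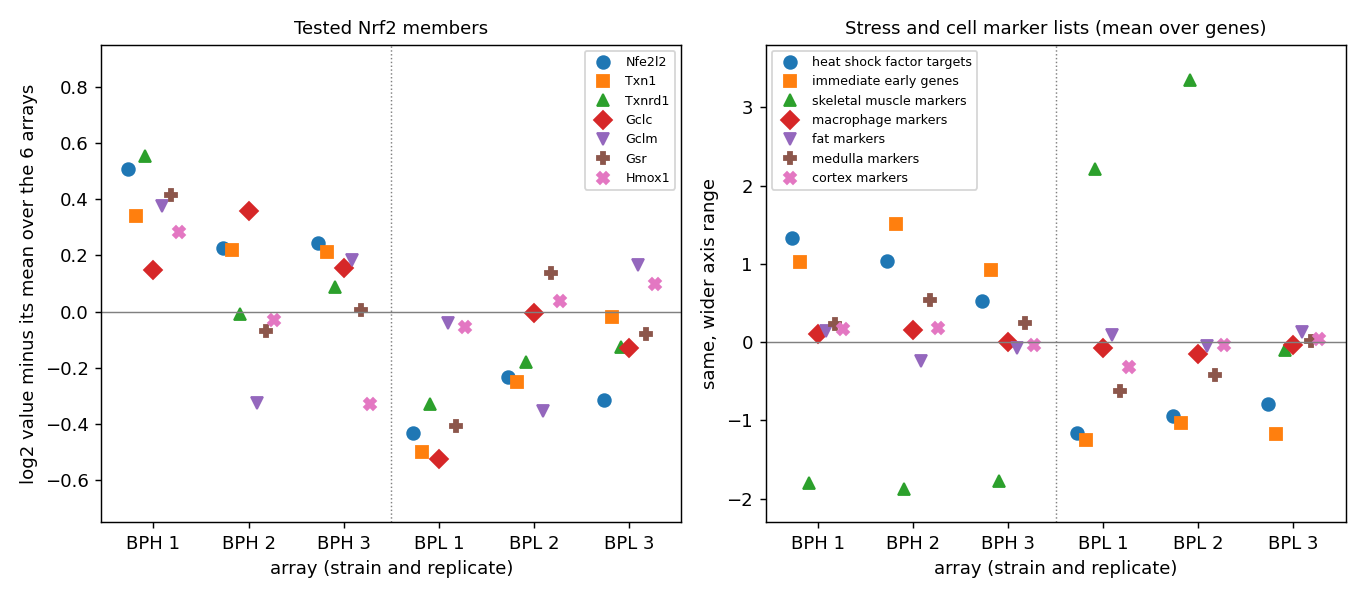
Log2 value of each tested member (left) and mean log2 value of stress and cell marker lists (right, on a wider axis) on each array, each minus its own mean over the 6 arrays, with BPH arrays left of the dotted line and BPL arrays right of it. Tested members stay within 0.56 of their means, while the heat shock, immediate early and skeletal muscle lists reach 1.33, 1.51 and 3.35.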

How the data were processed

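Per the submitters' processing notes, MAS5 made the deposited values, which are linear intensity values for each probe set; its version, settings and target intensity were not given in the sources used here. Trimmed means (2% at each end) were 2501 or 2502 on every array. Array medians ran from 945 to 1144, so arrays were scaled to their mean of 1040. Values were log2(signal + 203), 203 being the 20th percentile of signals. The 66 control probe sets and the 40% of the others with the lowest mean log2 value were not tested. The strains were compared with limma 3.58.1 (lmFit and eBayes, R 4.3.3), 2-sided, with Benjamini-Hochberg adjustment over 7453 probe sets and a threshold of 0.05. On simulated data for this comparison (7453 probe sets) 63% of 100 changes of 2-fold and 97% of 100 of 4-fold were recovered. The largest difference of a tested member was 1.57-fold (Nfe2l2). Changes of that size or smaller were not simulated, so their recovery is not known.

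Genes were named from the platform annotation (1 symbol for 10833 probe sets, several for 396, none for 1193); lists used a gene's brightest probe set. Members, lists and tests were chosen with earlier results of these data known. Named were all members, the called genes (up to 6) and the brightest gene of each list except cell markers, which were described as whole lists, and the 5 probe sets most like Nfe2l2; any other gene, Th and Scg2 included, was picked with its values in view. Alternatives were other scalings, pseudocounts, filters and variance models, a replicate block and arrays left out; counting the pathway lists under them was chosen after seeing the data.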

Additional observations from a re-analysis of the deposited data

How the results depend on the processing

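The 0 members called in either direction by limma became 1 (Nfe2l2, higher) with a higher pseudocount, with a stricter filter and with a trended and robust variance, and stayed 0 without each single array. Of the differences, Hmox1 changed sign without BPH replicate 3 (0.10; without single arrays it ran from -0.21 to 0.10) and Gclm without BPL replicates 1 and 2 together (-0.0896; without single arrays it ran from 0.0042 to 0.35), where the lone BPL array is assumed to vary like the BPH arrays. The count of all probe sets called, 237 higher and 69 lower, was 106 and 21 with no filter, which tests 12422 probe sets, 78 and 10 without BPL replicates 1 and 2, and ran from 81 to 283 higher and from 20 to 92 lower without single arrays. Of the pathway list genes, 6 higher and 2 lower, 3 and 1 were called with no filter, 1 and 1 without BPL replicates 1 and 2, 2 to 5 and 1 to 2 without single arrays, and 1 lower with a floor or the replicate block. The cause of these moves was not tested. No pairing by replicate number was seen: deviations of same-numbered arrays from their strain means correlated at -0.06, -0.05 and -0.18. Those of differently numbered arrays correlated at -0.06 to 0.12. With 3 arrays per strain these deviations are not independent, so pairing is not excluded. The replicate block gave 239 calls in place of 306, left Nfe2l2 at a limma adjusted p of 0.15 and called 0 members by limma, and 4 pathway genes higher.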
